A study of Homo sapiens with 12 samples.

Results

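The RNA of 9 genes of programmed cell death was followed across 12 libraries of 624Mel cells, an established human melanoma line. The genes were the death receptors FAS, TNFRSF10A (TRAIL-R1) and TNFRSF10B (TRAIL-R2), the death ligand TNFSF10 (TRAIL), the caspases CASP1, CASP4 and CASP8, XAF1 (an XIAP-associated factor) and MLKL. They were chosen by name, for their place in cell death pathways, from 40173 gene IDs, with earlier results of these data known. Counts of these genes beside shares of all genes are therefore descriptions and not tests. Each of the 9 names matched 1 gene ID. Cells were reverse transfected with a negative control siRNA (siCTRL) or with 1 siRNA against MITF (siMITF), the transcription factor that maintains the melanocytic state. With either siRNA, cells were left without IFNγ or received it at 5 ng/mL for 24 h, and all cells were collected 48 h after transfection. This gave 4 conditions of 3 libraries each, named siCTRL and siMITF without the cytokine and siCTRL + IFNγ and siMITF + IFNγ with it. The knockdown was therefore transient and rested on a single siRNA in a single line.

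Death receptors of the TNF receptor family carry a death domain, recruit the adaptor FADD when their ligand binds, and activate caspase-8, which cleaves the executioner caspases. CASP1 and CASP4 encode inflammatory caspases, which cleave gasdermins and open pores in the membrane in pyroptosis. MLKL is the pore-forming effector of necroptosis, which RIPK3 phosphorylates. Interferons are known to induce several of these genes, and melanoma cells can use the same pathways when they are killed by T cells or by TRAIL.

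Expression was available as TPM, a length-normalised measure of transcript abundance, so levels of different genes are compared here on this scale. The TPM of a library summed to between 975336 and 982632. Since TPM keep no read totals, the depth behind a value is unknown and neither counting intervals nor floors are given. Genes with no signal are called listed at 0. Mitochondrial transcripts took from 7.42% to 16.9% of the TPM, and replicate 2 had the lowest share of the 3 libraries in every condition. The knockdown was seen in the target, with 211 ± 21.7 TPM of MITF in siCTRL and 42.5 ± 6.87 TPM in siMITF libraries (SD, n = 3). The melanocytic markers were present in every library, with a summed level of at least 7247 TPM over 7 markers with siCTRL and of at most 2656 TPM with siMITF. Markers of other cell types were low. The 4 leukocyte markers summed to at most 0.789 TPM outside siMITF + IFNγ and to between 0.964 and 1.23 TPM in siMITF + IFNγ, with CD3E listed at 0 in all 12 libraries. The 4 fibroblast markers summed to between 5.67 and 6.96 TPM in siCTRL, 3.64 and 4.05 TPM in siCTRL + IFNγ, 9.81 and 11.98 TPM in siMITF, and 5.94 and 6.70 TPM in siMITF + IFNγ. The 2 keratinocyte markers summed to at most 0.0721 TPM and the 2 endothelial markers to at most 0.778 TPM. The part of these markers in the results below was not tested.

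Differences between conditions are given on the log2(TPM + 1) scale from limma. The fit covered the 12773 gene IDs whose mean reached 2 TPM in some condition, with p-values adjusted over all of them. A gene is called changed when its adjusted p is under 0.05, its difference is 1 or more, and its mean reaches 2 TPM in either condition compared. It is said to have passed the test when the adjusted p alone is under 0.05. Of the 9 genes, 6 entered this fit. FAS, TNFRSF10A and MLKL stayed under the minimum in all 4 conditions and were fitted only without it, on 29003 gene IDs above 0 in any library. CASP1 and TNFSF10 entered only through their level in siMITF + IFNγ, which favours a high value in that condition. The comparisons share libraries, in particular the siCTRL libraries, so their errors are not independent. With 3 libraries in each of 2 conditions, an exact two-sided permutation test gives no p smaller than 0.1, so none is given. In bulk RNA a lower number of expressing cells and less RNA per cell cannot be told apart.

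In untreated siCTRL cells the 9 genes covered a wide range of levels. TNFRSF10B had the highest level at 57.4 ± 7.19 TPM (SD, n = 3), followed by CASP8 at 19.6 ± 1.47 TPM, CASP4 at 9.60 ± 0.0798 TPM and XAF1 at 1.81 ± 0.106 TPM. The 3 libraries of each of these genes lay above those of the next gene. MLKL followed at 0.366 ± 0.0630 TPM and did not overlap with FAS at 0.184 ± 0.0959 TPM, while FAS and TNFSF10 (0.0838 ± 0.0953 TPM) overlapped. CASP1 was listed at 0 in all 3 siCTRL libraries. In siMITF + IFNγ the order was different, with TNFRSF10B at 60.3 ± 6.71 TPM still first, CASP4 second at 37.9 ± 3.80 TPM, and CASP8 at 25.8 ± 2.54 TPM overlapping with XAF1 at 24.9 ± 0.190 TPM. CASP1 took the fifth place there at 4.41 ± 0.237 TPM, above and not overlapping with TNFSF10 at 2.56 ± 0.912 TPM.

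**Figure D1:**
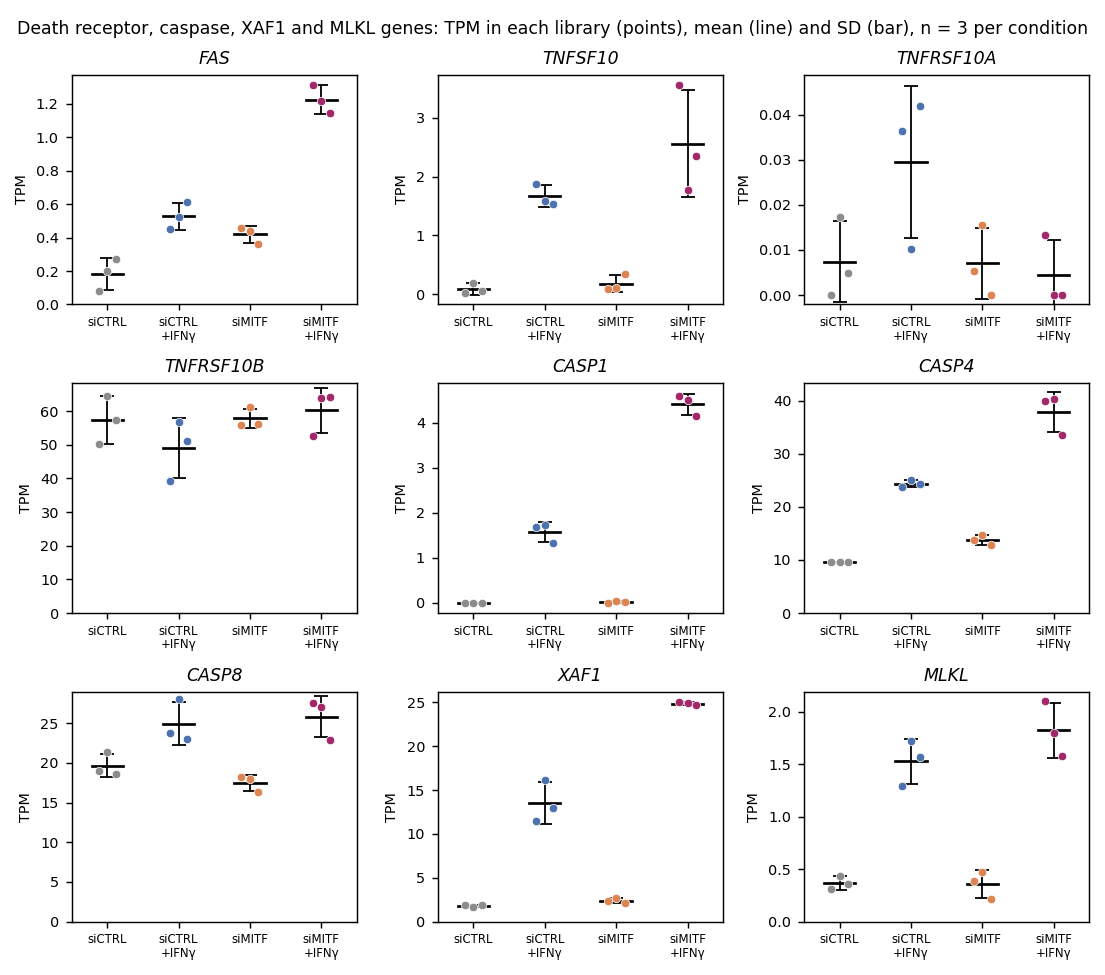
TPM of each of the 9 genes (vertical axes, linear, each panel with its own scale) in the 4 conditions, with points for the 3 libraries of a condition, a line for the mean and a bar for the SD. In the panels of TNFSF10, CASP1, CASP4, CASP8, XAF1 and MLKL the points with IFNγ lie above all points without it, whereas those of TNFRSF10B overlap between 39.4 and 64.5 TPM.

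Promoter windows of 5 genes that moved with IFNγ are shown, picked because they hold short interferon motifs. FAS also moved with IFNγ and is not shown. They run from 250 bases before the start of transcription to 20 bases after it, 5′ to 3′ on the strand of the gene, from RefSeq on GRCh38.p14. Capitals mark the core that IRF proteins recognise, AANNGAAA on either strand, and the gamma-activated site TTCNNNGAA that STAT dimers recognise.
TNFSF10 (chr3:172523411-172523680, minus strand): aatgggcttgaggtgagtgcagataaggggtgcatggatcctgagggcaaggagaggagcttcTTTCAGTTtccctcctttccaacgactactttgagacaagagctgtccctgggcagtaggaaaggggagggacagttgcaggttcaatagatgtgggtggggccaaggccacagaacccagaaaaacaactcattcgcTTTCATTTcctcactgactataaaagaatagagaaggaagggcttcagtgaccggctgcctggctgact
CASP4 (chr11:104968555-104968824, minus strand): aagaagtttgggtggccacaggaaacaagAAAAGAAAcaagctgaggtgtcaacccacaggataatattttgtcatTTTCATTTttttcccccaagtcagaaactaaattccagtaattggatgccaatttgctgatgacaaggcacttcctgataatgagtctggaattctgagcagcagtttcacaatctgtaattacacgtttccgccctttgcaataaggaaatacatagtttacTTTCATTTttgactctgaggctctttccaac
CASP8 (chr2:201233213-201233482, plus strand): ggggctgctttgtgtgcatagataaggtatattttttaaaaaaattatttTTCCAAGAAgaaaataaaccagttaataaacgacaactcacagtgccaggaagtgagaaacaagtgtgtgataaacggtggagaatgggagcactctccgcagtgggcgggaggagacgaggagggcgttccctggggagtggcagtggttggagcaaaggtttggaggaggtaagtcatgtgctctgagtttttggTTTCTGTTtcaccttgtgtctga
XAF1 (chr17:6755796-6756065, plus strand): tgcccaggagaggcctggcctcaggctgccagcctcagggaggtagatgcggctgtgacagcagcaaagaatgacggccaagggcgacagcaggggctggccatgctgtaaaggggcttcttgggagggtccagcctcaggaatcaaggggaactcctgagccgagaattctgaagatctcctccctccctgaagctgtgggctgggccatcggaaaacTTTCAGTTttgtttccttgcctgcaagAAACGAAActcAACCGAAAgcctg
MLKL (chr16:74700843-74701112, minus strand): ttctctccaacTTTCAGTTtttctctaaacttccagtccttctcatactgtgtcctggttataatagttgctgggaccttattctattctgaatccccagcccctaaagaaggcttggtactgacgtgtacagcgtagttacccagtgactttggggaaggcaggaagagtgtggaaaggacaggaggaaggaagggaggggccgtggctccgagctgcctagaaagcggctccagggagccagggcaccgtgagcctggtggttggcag

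AANNGAAA was present in 8 of the 11 windows of 300 bases that RefSeq gives for FAS, TNFSF10, CASP4, CASP8, XAF1 and MLKL, and in at least 1 window of each of these 6 genes. Some windows of FAS and CASP8 held no AANNGAAA. It was present in 22.8% of the 35116 windows of all genes, and it was chosen after the windows had been read. This share is per window and not per gene. The longer core of the interferon-stimulated response element (GAAA, any 2 bases and GAAA) always contains AANNGAAA. It occurred in the windows of TNFSF10 (from position -187, as TTTCAGTTTC on the opposite strand) and CASP8 (from -3), against 3.57% of all windows. TTCNNNGAA occurred in the CASP8 window alone among these genes, from -200 as TTCCAAGAA, against 7.66% of all windows. Of the motifs that MITF can bind, CATGTG occurred in 1 CASP8 window (11.1% of all windows) and CACGTG in none of the 11 (7.26% of all windows). These matches are descriptions of the letters. No binding was measured in these libraries. A CASP1 window is not shown. TNFRSF10A and TNFRSF10B had no window among the 11, so the motifs were not compared with these genes.

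The genes lie on 7 chromosomes (GRCh38, GENCODE 44 coordinates). CASP4 (chr11:104942866-104969366) and CASP1 (chr11:105025397-105035250), both on the minus strand, are neighbours in a cluster of inflammatory caspase genes with CASP5 between them and CASP12, CARD16 and CARD18 around them. TNFRSF10B and TNFRSF10A, both on the minus strand of chromosome 8, flank the decoy receptor genes TNFRSF10C and TNFRSF10D. CASP8 (chr2:201233443-201361836, plus strand) follows CFLAR and CASP10. FAS (chr10:88953813-89029605, plus strand), TNFSF10 (chr3:172505508-172523475, minus strand), XAF1 (chr17:6755447-6775647, plus strand) and MLKL (chr16:74671855-74700960, minus strand) stand alone among the 9. The library kit does not keep the strand. FAS overlaps STAMBPL1 and ACTA2, TNFRSF10B overlaps RHOBTB2, CASP8 overlaps FLACC1, and CASP1 shares sequence with CARD16, so reads of these genes may have been split between them.

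IFNγ in siCTRL cells raised XAF1, CASP4, CASP1 and TNFSF10. XAF1, an interferon-inducible gene that can oppose XIAP, stood at 1.86, 1.69 and 1.88 TPM in the siCTRL libraries and at 11.45, 16.12 and 12.95 TPM in siCTRL + IFNγ. All 3 treated libraries were above all 3 untreated ones, which held for 11.7% of all tested genes. The difference was 2.36 (SE 0.12, limma adjusted p = 9.57e-09), a 7.47-fold ratio of the mean TPM.

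CASP4, whose product senses cytosolic lipopolysaccharide, was measured at 9.59, 9.69 and 9.53 TPM without and at 23.7, 25.0 and 24.3 TPM with IFNγ. The libraries of each condition lay within a narrow band and the bands were far apart. The difference was 1.26 (SE 0.09, limma adjusted p = 4.24e-07), a 2.53-fold ratio of the mean TPM.

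CASP1, which processes interleukin-1β, was listed at 0 in the 3 siCTRL libraries and reached 1.68, 1.72 and 1.32 TPM with IFNγ. The difference was 1.36 (SE 0.10, limma adjusted p = 7.23e-07), and no fold is given against values of 0. CASP1 passed the test and had a difference over 1, but was not called changed because its mean of 1.58 TPM was under the minimum. TNFSF10, the ligand of both TRAIL receptors, went from 0.00962, 0.191 and 0.0505 TPM to 1.88, 1.59 and 1.54 TPM, again without overlap. Its difference was 1.30 (SE 0.17, limma adjusted p = 1.62e-04), and it was under the same minimum. So 2 of the 6 fitted genes, XAF1 and CASP4, were called changed, both higher. Of all tested genes, 2.42% were changed and higher (2.52% in both directions) and 6.8% passed the test and were higher.

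CASP8 and TNFRSF10B, the 2 genes with the highest levels, moved little with IFNγ in siCTRL cells. CASP8 was at 19.0, 21.3 and 18.6 TPM without and 23.8, 28.0 and 23.0 TPM with IFNγ, with no overlap. The difference of 0.33 (SE 0.10) missed the threshold (limma adjusted p = 0.0541) and passed it with the replicate number as a block (adjusted p = 0.00590), where 9.67% of all tested genes passed and were higher and 16% passed and were lower. CASP8 also passed with quantile normalization (0.0247), with each library centred on its median (0.0248), with mitochondrial genes left out (0.00733), and when siMITF + IFNγ replicate 1 or replicate 3 was left out (0.0442 and 0.0444). TNFRSF10B was at 50.1, 64.5 and 57.5 TPM without and 39.4, 56.9 and 51.2 TPM with IFNγ, and the libraries overlapped. Its difference was -0.23 (SE 0.13, limma adjusted p = 0.318). TNFRSF10B passed with the block (0.0452) and with median centring (difference -0.21, adjusted p = 0.0431). The 95% interval without the block ran from -0.52 to 0.06.

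The genes under the minimum were read from the fit without it. MLKL stood at 0.310, 0.434 and 0.355 TPM in siCTRL and at 1.29, 1.72 and 1.56 TPM in siCTRL + IFNγ, with no overlap. Its difference was 0.88 (SE 0.10, limma adjusted p = 5.66e-04), a 4.17-fold ratio of mean TPM. FAS was at 0.0808, 0.199 and 0.271 TPM without and at 0.449, 0.523 and 0.610 TPM with IFNγ, also without overlap. Its difference was 0.37 (SE 0.07, limma adjusted p = 0.00998), a 2.87-fold ratio of mean TPM. In this fit 3.08% of the 29003 gene IDs passed the test and were higher, and in 8.86% all treated libraries were above all untreated ones. TNFRSF10A was listed at 0, 0.0174 and 0.00482 TPM in siCTRL and at 0.0365, 0.0103 and 0.0418 TPM in siCTRL + IFNγ. Its libraries overlapped and it did not pass in this or any other comparison, with 0.0418 TPM the highest value in the 12 libraries.

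In siMITF cells IFNγ raised the same 4 genes of the main fit by at least 1, and CASP8 by less. XAF1 was at 2.29, 2.67 and 2.16 TPM in siMITF and at 25.0, 24.9 and 24.7 TPM in siMITF + IFNγ. The 3 combined libraries were almost equal and far above the others, and 12.1% of all tested genes had no overlap in this direction. The difference was 2.94 (SE 0.12, limma adjusted p = 8.45e-10), a 10.5-fold ratio of mean TPM. CASP1 went from 0, 0.0437 and 0.0161 TPM to 4.59, 4.50 and 4.14 TPM. The difference was 2.41 (SE 0.10, limma adjusted p = 1.61e-09), the second largest of the 6 fitted genes in this comparison.

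CASP4 was at 13.8, 14.7 and 12.8 TPM in siMITF and at 39.9, 40.3 and 33.5 TPM in siMITF + IFNγ, with a difference of 1.40 (SE 0.09, limma adjusted p = 1.22e-07). TNFSF10 was at 0.0892, 0.107 and 0.338 TPM and then at 3.56, 1.77 and 2.35 TPM, with a difference of 1.57 (SE 0.17, limma adjusted p = 2.41e-05). Neither gene had overlapping libraries, although the TNFSF10 values with IFNγ were spread over a wide range. CASP8 rose from 18.2, 17.9 and 16.3 TPM to 27.6, 27.0 and 22.9 TPM (difference 0.54, SE 0.10, limma adjusted p = 0.00266). Thus 4 of the 6 fitted genes, XAF1, CASP1, TNFSF10 and CASP4, were called changed and higher, as were 2.72% of all tested genes (2.95% in both directions). CASP8 passed as well, as did 7.99% of all tested genes in this direction. CASP1 and TNFSF10 entered the fit through siMITF + IFNγ alone, so the count of 4 is not read against these shares. In the fit without a minimum the limma adjusted p-values of CASP1 and TNFSF10 were 1.40e-08 and 2.76e-04. When a mean of 5 TPM across the 12 libraries was required, CASP1 and TNFSF10 were no longer tested.

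TNFRSF10B was at 56.0, 61.2 and 56.3 TPM in siMITF and at 52.5, 64.0 and 64.2 TPM in siMITF + IFNγ. The libraries overlapped and the difference was 0.05 (SE 0.13, limma adjusted p = 0.811). Its 95% interval ran from -0.24 to 0.35. In the fit without a minimum, MLKL rose from 0.383, 0.476 and 0.214 TPM to 2.10, 1.80 and 1.57 TPM (difference 1.06, SE 0.10, limma adjusted p = 1.24e-04). FAS rose from 0.455, 0.437 and 0.364 TPM to 1.31, 1.22 and 1.14 TPM (difference 0.65, SE 0.07, limma adjusted p = 2.04e-04). The ratio of mean TPM of FAS was 2.92, against 2.87 in siCTRL cells. Neither ratio includes the pseudocount of 1. Neither MLKL nor FAS had overlapping libraries, where 4.15% of the gene IDs in this fit passed the test and were higher and 8.08% had no overlap in this direction.

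**Figure D2:**
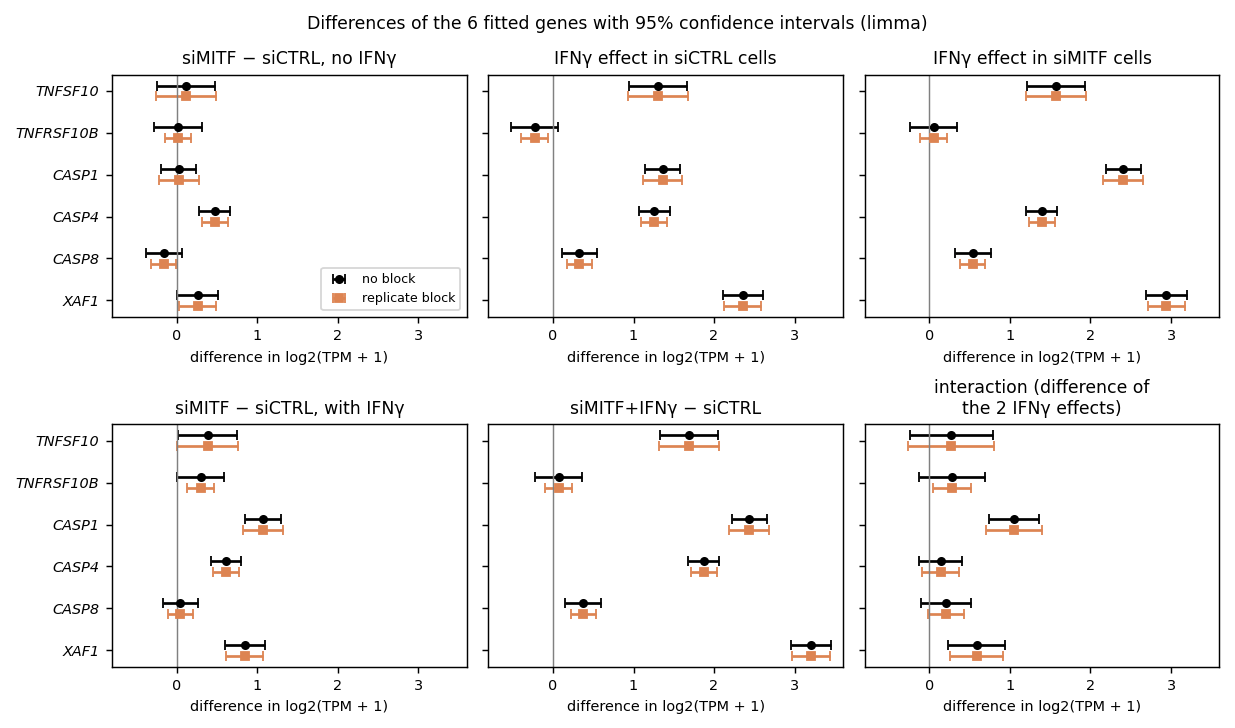
Differences in log2(TPM + 1) of the 6 fitted genes (horizontal axes, linear) in 5 comparisons and for the interaction, with 95% confidence intervals. Black circles are the fit without a block and orange squares the fit with the replicate number as a block. XAF1 has the largest difference in both IFNγ panels, at 2.36 and 2.94. In the interaction panel the intervals of CASP1 and XAF1 lie above 0 while those of TNFSF10, CASP4 and CASP8 include it in both fits. The TNFRSF10B interval includes 0 without the block and lies above it with the block.

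Knockdown of MITF alone moved few of these genes. CASP4 rose from 9.59, 9.69 and 9.53 TPM in siCTRL to 13.8, 14.7 and 12.8 TPM in siMITF, without overlap (difference 0.48, SE 0.09, limma adjusted p = 0.00112). None of the 6 fitted genes was called changed, while 6.1% of all tested genes were changed and 34.8% passed the test, 21% higher and 13.8% lower. XAF1 was higher in all 3 siMITF libraries than in all 3 siCTRL libraries, at 2.29, 2.67 and 2.16 against 1.86, 1.69 and 1.88 TPM, as were 33% of all tested genes. The difference of 0.26 (SE 0.12) missed the threshold (limma adjusted p = 0.102) and met it without siCTRL + IFNγ replicate 2 (0.0448), with mitochondrial genes left out (0.0422) and with a pseudocount of 0.1 (0.0481).

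CASP8 had 18.2, 17.9 and 16.3 TPM in siMITF against 19.0, 21.3 and 18.6 TPM in siCTRL. All siMITF libraries lay below all siCTRL libraries, as for 22% of all tested genes, with a difference of -0.16 (SE 0.10, limma adjusted p = 0.258). TNFRSF10B overlapped between the conditions, with a difference of 0.02 and a 95% interval from -0.27 to 0.31. CASP1 differed by 0.03 (limma adjusted p = 0.860) and TNFSF10 by 0.12 (adjusted p = 0.636). CASP1 was listed at 0 in 1 of the 3 siMITF libraries and reached at most 0.0437 TPM in the others. FAS, in the fit without a minimum, was 2.28-fold higher in mean TPM in siMITF (difference 0.26, SE 0.07, limma adjusted p = 0.0216), with no overlap, where 10.2% of gene IDs passed and were higher and 21.6% did not overlap in this direction. MLKL differed by -0.01, with a 95% interval from -0.24 to 0.21.

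In the presence of IFNγ, knockdown of MITF raised CASP1, XAF1 and CASP4. CASP1 was at 1.68, 1.72 and 1.32 TPM with siCTRL and at 4.59, 4.50 and 4.14 TPM with siMITF. The ratio of mean TPM was 2.80 and the difference 1.07 (SE 0.10, limma adjusted p = 4.68e-06). CASP1 was the 1 gene of the 9 called changed here. It entered the fit through its siMITF + IFNγ level alone, so this call is not read against the 3.12% of all tested genes that were changed and higher (5.68% in both directions). In the fit without a minimum, which does not select on that level, CASP1 had the same difference with an adjusted p of 6.42e-06. XAF1 had a 1.84-fold ratio of mean TPM (difference 0.85, SE 0.12, limma adjusted p = 1.11e-04) and CASP4 a 1.56-fold ratio (difference 0.61, SE 0.09, limma adjusted p = 1.66e-04). The libraries of XAF1 and CASP4 did not overlap, while 21.3% of all tested genes had no overlap in this direction and 18.4% passed and were higher. Those of CASP1 did not overlap either, as for 14.5% of the 29003 gene IDs.

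TNFSF10 had 1.88, 1.59 and 1.54 TPM with siCTRL and 3.56, 1.77 and 2.35 TPM with siMITF under IFNγ, and the libraries overlapped. The difference of 0.39 (SE 0.17) missed the threshold (limma adjusted p = 0.0977) and met it without siMITF + IFNγ replicate 2, the lowest of the 3 (difference 0.55, adjusted p = 0.0203). TNFRSF10B was at 39.4, 56.9 and 51.2 TPM against 52.5, 64.0 and 64.2 TPM, overlapping. Its difference of 0.30 (SE 0.13, limma adjusted p = 0.110) missed the threshold. TNFRSF10B passed with the replicate block (0.00659, where 25.3% of all tested genes passed and were higher), with quantile normalization (0.00523), with median centring (0.00453), with mitochondrial genes left out (0.0320), and without siCTRL + IFNγ replicate 2 (0.0394) or siMITF + IFNγ replicate 1 (0.0485). CASP8 differed by 0.05 with a 95% interval from -0.17 to 0.27. FAS had a 2.32-fold ratio of mean TPM without overlap (difference 0.54, SE 0.07, limma adjusted p = 3.78e-04 without the minimum), where 9.31% of gene IDs passed and were higher and 14.5% did not overlap in this direction. MLKL overlapped (difference 0.16, limma adjusted p = 0.379).

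Set against untreated siCTRL cells, the combination gave the largest differences of the 5 comparisons for XAF1 (3.20), CASP1 (2.44), CASP4 (1.87), TNFSF10 (1.69) and FAS (0.91), the last from the fit without a minimum. XAF1, CASP1, CASP4 and TNFSF10 were called changed and higher, with limma adjusted p-values from 2.87e-10 to 4.59e-06, where 5.61% of all tested genes were changed and higher (8.75% in both directions). CASP1 and TNFSF10 entered the fit through siMITF + IFNγ alone, so their calls are not read against these shares. Without a minimum the adjusted p was 1.10e-08 for CASP1 and 6.25e-05 for TNFSF10. All 3 combined libraries lay above all 3 siCTRL libraries for XAF1, CASP4 and CASP8, as for 23.7% of all tested genes. The same held for CASP1, TNFSF10, FAS and MLKL, as for 16.7% of the 29003 gene IDs. The ratio of mean TPM was 13.7 for XAF1, 3.95 for CASP4, 30.5 for TNFSF10 and 6.66 for FAS. The TNFSF10 ratio rests on siCTRL values between 0.00962 and 0.191 TPM. CASP8 passed the test with a 1.32-fold ratio (difference 0.38, limma adjusted p = 0.00965), where 21.1% of all tested genes passed and were higher. MLKL, in the fit without a minimum, rose by 1.04 (limma adjusted p = 5.25e-05), where 11.8% of gene IDs passed and were higher. TNFRSF10B differed by 0.07, with a 95% interval from -0.22 to 0.36.

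The interaction asks whether the log2 effect of IFNγ differed between siMITF and siCTRL cells. CASP1 was the 1 gene of the 9 that passed, with an interaction of 1.05 (SE 0.14, limma adjusted p = 0.00284), and 0.947% of all tested genes passed in either direction. Since the minimum let CASP1 in through its siMITF + IFNγ level alone, the fit without a minimum was read too. There the interaction was 1.05 (SE 0.10, limma adjusted p = 0.00146), and 0.486% of the 29003 gene IDs passed. IFNγ added 1.58 ± 0.126 TPM of CASP1 in siCTRL cells and 4.39 ± 0.137 TPM in siMITF cells (difference of means ± SE). The interaction of CASP1 rests on siCTRL and siMITF values at or near 0, and with a pseudocount of 0.1 in place of 1 it was 1.19 with an adjusted p of 0.282. With a minimum mean of 5 TPM across the 12 libraries CASP1 was not tested.

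XAF1 had an interaction of 0.59 (SE 0.16) that missed the threshold (limma adjusted p = 0.176). It met the threshold with quantile normalization (0.00501), with each library centred on its median (0.0315) and without siCTRL + IFNγ replicate 2 (0.0375), the highest XAF1 value of that condition. IFNγ added 11.7 ± 1.38 TPM of XAF1 in siCTRL and 22.5 ± 0.188 TPM in siMITF cells. CASP4 gained 14.7 ± 0.382 and 24.1 ± 2.26 TPM, but on the log2 scale its interaction was 0.14 with a 95% interval from -0.13 to 0.41. The intervals of CASP8 (-0.11 to 0.52), TNFSF10 (-0.25 to 0.78) and TNFRSF10B (-0.13 to 0.69) also included 0. With the replicate block the TNFRSF10B interval ran from 0.05 to 0.51, and its interaction did not pass (limma adjusted p = 0.261). The interactions of FAS (0.28, limma adjusted p = 0.457) and MLKL (0.17, adjusted p = 0.877) in the fit without a minimum did not pass.

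Across the 12 libraries most of the 9 genes rose and fell together, as a description over libraries that share 4 conditions. On the log2(TPM + 1) scale Pearson's r over 12 libraries was 0.98 between CASP1 and XAF1, 0.98 between XAF1 and MLKL, 0.98 between CASP4 and XAF1 and 0.95 between CASP1 and TNFSF10. CASP8 had r of 0.93 with MLKL and 0.66 with FAS. TNFRSF10B stood apart, with r between -0.57 and 0.21 to the other 8 genes. Among all tested genes, the pattern most like that of CASP1 was found for GBP4 (r = 0.999) and CHRD (0.993), and the pattern most like that of XAF1 for B2M, CD74 and HLA-B (0.997 each). CASP4 was closest to PSME2 (0.993), GSTK1 (0.992) and A2M (0.989), and MLKL to RASGRP3 (0.991), RELL1 (0.990) and SAMD9 (0.988). For TNFSF10 they were MMP25 (0.982), C4B and NNMT (both 0.979), and for FAS PALMD (0.978), ANTXR2 (0.973) and FCRLA (0.970). CASP8 was closest to ECHDC1 (0.973), BLZF1 (0.968) and PSMA3 (0.966). The genes closest to TNFRSF10B were ANKMY2 (0.982), ITGB1 (0.962) and LCP1 (0.953), while for TNFRSF10A no gene exceeded the 0.767 of RILP, ahead of TEX30 (0.754) and CHAC1 (0.741).

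Among the other ligands, receptors and decoys, the ligands were near 0 and 3 of 12 listed genes were fitted. FASLG, the ligand of FAS, reached at most 0.112 TPM and TNF at most 0.000433 TPM in any library. TNFRSF21 (death receptor 6) had the highest level of any listed receptor. It stood at 68.4, 68.8 and 67.6 TPM in siCTRL, 150.5, 186.2 and 159.7 TPM in siCTRL + IFNγ, 57.4, 63.9 and 53.9 TPM in siMITF and 206.1, 208.2 and 204.5 TPM in siMITF + IFNγ. Libraries with and without IFNγ did not overlap. IFNγ changed it by 1.26 in siCTRL cells (SE 0.08, limma adjusted p = 2.76e-07) and by 1.81 in siMITF cells (adjusted p = 5.02e-09). Its interaction of 0.55 had an adjusted p of 0.0597, and of 0.00909 with the replicate block, where 2.16% of all tested genes passed. TNFRSF1A, the TNF receptor with a death domain, rose with IFNγ by 0.66 in siCTRL (35.7 ± 3.08 to 57.1 ± 7.57 TPM, limma adjusted p = 6.33e-04) and by 0.49 in siMITF cells (adjusted p = 0.00377). TNFRSF11B (osteoprotegerin), a soluble decoy that binds TRAIL, rose with siMITF from 0.802 ± 0.288 to 2.85 ± 0.659 TPM (difference 1.10, limma adjusted p = 1.60e-04). Its mean in siCTRL + IFNγ was 1.15 TPM, so TNFRSF11B entered the fit only through siMITF and siMITF + IFNγ. That favours a high value with siMITF, and its call is not read against shares of all tested genes. The decoys TNFRSF10C and TNFRSF10D stayed under the minimum. The list's median difference was 0.66 for IFNγ in siCTRL cells and 0.49 in siMITF cells, over the 3 fitted genes, against medians of -0.07 and -0.10 over all tested genes.

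Of 17 adaptors, inhibitors and executioners, 16 were fitted, and IFNγ in siCTRL cells raised 2 of them, among them the adaptor TRADD (difference 0.43, limma adjusted p = 0.0441), while 6.8% of all tested genes passed and were higher and 6.14% lower. In siMITF cells IFNγ also raised 2 and lowered none of them (7.99% and 12.2% of all tested genes). With siMITF alone, 0 rose and 1 fell (21% and 13.8% of all tested genes). In siMITF + IFNγ, 1 rose and 2 fell against siCTRL + IFNγ (18.4% and 14.7% of all tested genes), and 3 rose and 3 fell against siCTRL (21.1% and 23.4%). With the replicate block, which called 47.7% of all tested genes for siMITF, 25.7% for IFNγ in siCTRL and 35.7% in siMITF cells, 46.3% for siMITF with IFNγ and 56.9% for the combination, the genes of this list that passed went from 1 to 3 for siMITF, from 2 to 6 for IFNγ in siMITF cells and from 3 to 8 for siMITF with IFNγ. The adaptor FADD averaged 31.4 ± 2.80 TPM in siCTRL against 27.3 ± 2.27 TPM in siMITF + IFNγ, and the caspase-8 inhibitor CFLAR 14.87 ± 1.44 against 15.04 ± 1.03 TPM. Neither of these genes passed in any of the 5 comparisons without the block. With it FADD was lower in siMITF + IFNγ than in siCTRL + IFNγ (difference -0.22, limma adjusted p = 0.0184) and than in siCTRL (difference -0.20, adjusted p = 0.0235). CASP10, the paralog of CASP8, reached at most 0.571 TPM. BID, which caspase-8 cleaves to engage mitochondria, was the 1 gene of this list called changed. It was measured at 36.3, 36.1 and 33.0 TPM in siCTRL and at 8.03, 10.9 and 10.7 TPM in siMITF. It fell by 1.74 (SE 0.13, limma adjusted p = 4.02e-07), and by 1.32 in the presence of IFNγ (adjusted p = 5.07e-06). The list's median difference was -0.05 for siMITF and 0.02 for IFNγ in siCTRL cells, against 0.06 and -0.07 over all tested genes.

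Most partners of CASP1 and CASP4 in the inflammasome were scarce. Of 20 listed genes, 19 were in the table and 3 were fitted. The adaptor PYCARD reached at most 0.615 TPM, NLRP3 at most 0.147 TPM and IL1B at most 0.127 TPM. GSDMD, the gasdermin that both caspases cleave, had 0.792 ± 0.390 TPM in siCTRL and 1.78 ± 0.909 TPM in siMITF + IFNγ. AIM2, a DNA sensor, was at 0.0507, 0.0215 and 0.0791 TPM in siCTRL, 0.855, 0.775 and 0.572 TPM in siCTRL + IFNγ and 2.23, 1.26 and 1.38 TPM in siMITF + IFNγ. Its libraries with IFNγ lay above those without, under the minimum for the fit. GSDME, another gasdermin, rose with IFNγ from 4.71 ± 0.392 to 9.48 ± 1.65 TPM in siCTRL (difference 0.87, limma adjusted p = 4.73e-04) and by 0.81 in siMITF cells (adjusted p = 6.30e-04). NINJ1, which ruptures the membrane of dying cells, was lower in siMITF + IFNγ than in siCTRL + IFNγ (difference -0.58, limma adjusted p = 0.00632). The list's median over the 3 fitted genes was -0.03 for IFNγ in siCTRL and -0.15 in siMITF cells. For siMITF alone none of the 3 passed without the block, where 34.8% of all tested genes passed. GSDME (difference 0.34, limma adjusted p = 0.0369) and NINJ1 (difference -0.36, adjusted p = 0.0114) passed with the block, where 47.7% of all tested genes passed.

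Among the necroptosis genes the kinase that activates MLKL was missing from nearly all libraries. RIPK3 was listed at 0 in 10 of the 12 libraries and reached 0.00712 and 0.00377 TPM in 2 siMITF + IFNγ libraries. RIPK1 was expressed at 14.9 ± 1.08 TPM in siCTRL and did not pass in the 5 comparisons without the block. With it RIPK1 passed and was higher for IFNγ in siCTRL cells (difference 0.29, limma adjusted p = 0.0338), for IFNγ in siMITF cells (0.25, adjusted p = 0.0462) and for the combination (0.23, adjusted p = 0.0465). TLR3, a receptor for double-stranded RNA, was at 1.64, 2.88 and 1.63 TPM in siCTRL and at 6.01, 12.3 and 9.29 TPM in siCTRL + IFNγ, with no overlap. IFNγ changed TLR3 by 1.72 in siCTRL (SE 0.22, limma adjusted p = 1.31e-04) and by 2.12 in siMITF cells (adjusted p = 1.50e-05). Knockdown alone lowered TLR3 by 0.78 (adjusted p = 0.0133). Of 7 fitted genes, TLR3 was the 1 that passed for IFNγ in siCTRL cells. Of all tested genes, 6.8% passed and were higher there and 6.14% passed and were lower. With the block RIPK1 and FLOT2 (difference 0.33, limma adjusted p = 0.0130) passed too, where 25.7% of all tested genes passed. The block also took the count from 1 to 2 for siMITF alone and from 1 to 3 for siMITF with IFNγ. For siMITF alone 34.8% of all tested genes passed without the block and 47.7% with it. For siMITF with IFNγ 18.4% passed and were higher and 14.7% lower without the block, and 46.3% passed with it. For IFNγ in siMITF cells TLR3 and FLOT1 passed and were higher, and PGAM5 passed and was lower, against 7.99% and 12.2% of all tested genes. The list's median difference was 0.27 and 0.12 for IFNγ in siCTRL and siMITF cells.

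Inhibitor of apoptosis proteins and their antagonists were listed together. Of 8 fitted genes, 4 rose and 2 fell with siMITF, while 21% of all tested genes passed and were higher and 13.8% lower. IFNγ raised SEPTIN4 and lowered BIRC5 and HTRA2 with either siRNA. BIRC7 (livin), which melanomas are known to express, was measured at 101.3, 102.4 and 93.7 TPM in siCTRL and at 15.5, 15.8 and 14.7 TPM in siMITF. It fell by 2.61 (SE 0.09, limma adjusted p = 1.12e-09), and by 2.57 in the presence of IFNγ (adjusted p = 1.51e-09). XIAP, which XAF1 binds, was at 12.2, 15.5 and 14.5 TPM in siCTRL and at 6.15, 6.67 and 7.13 TPM in siMITF. It fell by 0.97 (SE 0.21, limma adjusted p = 0.00330). SEPTIN4, whose ARTS isoform antagonises XIAP, rose with siMITF by 0.80 (14.7 ± 0.252 to 26.4 ± 0.558 TPM, limma adjusted p = 5.02e-06) and with IFNγ by 0.52 (adjusted p = 5.32e-04). Its level was highest in siMITF + IFNγ at 39.1 ± 1.51 TPM. BIRC5 (survivin) fell with IFNγ by 0.44 in siCTRL (limma adjusted p = 0.00702) and by 0.79 in siMITF cells (adjusted p = 5.58e-05). The antagonist DIABLO passed in none of the 5 comparisons. The list's median difference was 0.18 for siMITF and -0.13 for IFNγ in siCTRL cells.

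**Figure D3:**
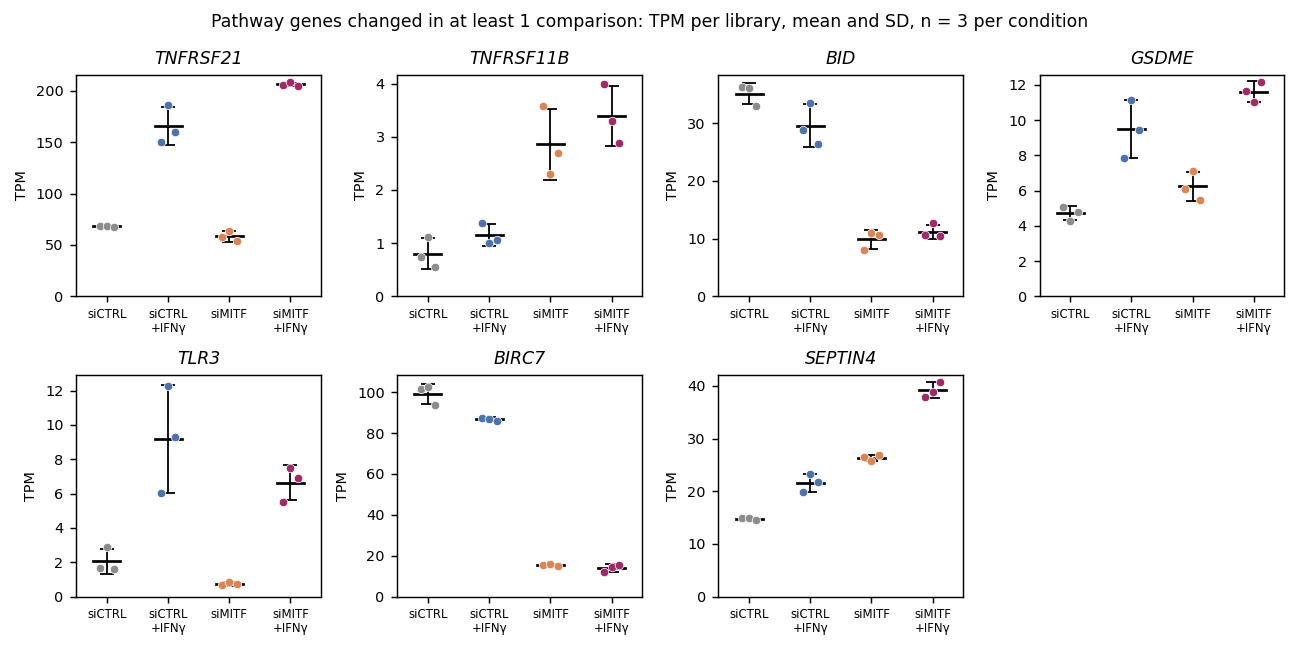
TPM (vertical axes, linear, each panel with its own scale) of the 7 listed pathway genes called changed in at least 1 of the 5 comparisons, with points for the 3 libraries of a condition, a line for the mean and a bar for the SD. TNFRSF21, GSDME and TLR3 are higher in the IFNγ libraries of each siRNA, BID and BIRC7 are lower in all siMITF libraries, TNFRSF11B is higher in them, and SEPTIN4 is highest with both at 39.1 TPM. TNFRSF11B entered the fit only through its levels in siMITF and siMITF + IFNγ.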

How the data were processed

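The 12 libraries (TruSeq RNA v2 kit) came from 4 conditions with 3 independent biological replicates each, grouped by the labels. The authors trimmed reads with Trimmomatic 0.39 and ran kallisto against Ensembl's GRCh38 transcripts. They deposited TPM per gene, which are relative to each library's own total, so a rise of some genes lowers the values of the rest. Their DESeq2 1.26.0 tests used counts that are not used here. The Ensembl release is not given in the sources used here.

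TPM were transformed to log2(TPM + 1). limma 3.58.1 in R 4.3.3 (empirical Bayes with an intensity trend, two-sided, Benjamini-Hochberg adjustment) was fitted with 1 coefficient per condition to 12773 gene IDs. It was tested on simulated data with noise independent between libraries. Differences were planted there only in genes of higher mean level, so that test does not cover genes as low as CASP1 and TNFSF10. Same-numbered libraries of different conditions deviated together (18 of 18 pairs with r over 0.1, from 0.102 to 0.625, with a median of 0.279), so the replicate number was also fitted as a block. For the 6 fitted genes among the 9 the block is printed beside a result where it changes the call. For the pathway lists only some of the calls that it changed are printed. The 9 genes and the pathway lists were chosen with earlier results of these data known. For each of the 9, the 3 tested genes with the highest correlation are named, apart from those not reported here. The alternatives were other pseudocounts, filters and scalings, no trend, only the compared conditions, TPM summed by symbol, the block and each library left out in turn. Motifs were searched on both strands of RefSeq promoter windows (GRCh38.p14). Some genes are not reported here.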

Additional observations from a re-analysis of the deposited data

Results flagged for a closer look

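The response of CASP1 to IFNγ differed between siMITF and siCTRL cells by the interaction term, which was 1.05 on the log2(TPM + 1) scale (limma adjusted p = 0.00284). All 3 siMITF + IFNγ libraries (4.14 to 4.59 TPM) lay above all 3 siCTRL + IFNγ libraries (1.32 to 1.72 TPM), as for 14.5% of the 29003 gene IDs. That compares the siRNAs under IFNγ and is not a test of the interaction. Over the 21 alternatives that tested it, the interaction ran from 0.96 to 1.19 and its adjusted p from 4.08e-04 to 0.282, and 20 of the 21 stayed under 0.05. The exception was the pseudocount of 0.1 (adjusted p = 0.282). The interaction rests on CASP1 values without IFNγ at or near 0. CASP1 met the minimum of 2 TPM through siMITF + IFNγ alone, the condition that sets the interaction. In the fit of 29003 gene IDs without a minimum the interaction was 1.05 (SE 0.10, limma adjusted p = 0.00146).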

How the results depend on the processing

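The changed calls of 4 genes for IFNγ and for the combination held in every alternative that tested them. XAF1 and CASP4 (IFNγ with either siRNA, and the combination) and TNFSF10 and CASP1 (IFNγ in siMITF cells, and the combination) were changed in all of them. With a minimum mean of 5 TPM across the 12 libraries, CASP1 and TNFSF10 were not tested, so 2 of the 9 genes and 245 of all genes were changed for IFNγ in siMITF cells, 0 of the 9 for siMITF with IFNγ, and 2 of the 9 for the combination.

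The number of the 9 genes with an interaction went from 1 to 0 (pseudocount 0.1 and the 5 TPM minimum) or 2 (quantile normalization and median centring), and leaving out 1 library gave 1 to 2. The number of all genes with an interaction went from 121 to 68 with a pseudocount of 0.1, 65 with the 5 TPM minimum, 294 with quantile normalization, 263 with median centring, 220 without mitochondrial genes and 276 with the replicate block. Leaving out 1 library gave from 70 (without siMITF replicate 3) to 125. It was 78 without siCTRL replicate 1, 74 without siCTRL replicate 3, and 75 without siCTRL + IFNγ replicate 3 or siMITF replicate 2. The cause was not tested.

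Differences near 0 changed sign. Leaving out 1 library, TNFRSF10B for siMITF alone ran from -0.074 to 0.105 and for the combination from -0.021 to 0.166, and CASP8 for siMITF with IFNγ from -0.0044 to 0.131. TNFRSF10B for siMITF alone was -0.0071 with quantile normalization, -0.016 with median centring, -0.074 without siCTRL replicate 1 and -0.023 without siMITF replicate 2, and for the combination -0.021 without siCTRL replicate 1. CASP1 for siMITF alone was -0.0052 with median centring, CASP8 for siMITF with IFNγ -0.0044 without siCTRL + IFNγ replicate 3, and the interaction of TNFSF10 -0.074 with a pseudocount of 0.1. The replicate block was fitted to 6 of the 9 genes and not to FAS, TNFRSF10A or MLKL. It changed the calls of CASP8 and TNFRSF10B given above and no other call of these 6 genes. The scalings moved the median difference of all tested genes by less than 0.1. TPM without read totals give no limit for the genes listed at 0.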
